A study of Mus musculus with 16 samples.

Results

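The Gadd45 genes encode small acidic nuclear proteins that cells make when growth stops or DNA is damaged. A set of 4 genes was described here across 16 expression arrays of mouse embryonic stem (ES) cells: Gadd45a, Gadd45b and Gadd45g, which make up the family, and Gadd45gip1, whose product binds Gadd45 proteins. All probes carrying one of these 4 symbols were taken, which gave 9 of the 45281 probes on the array (2 each for Gadd45a, Gadd45b and Gadd45g, and 3 for Gadd45gip1). A probe was tested when its signal was above background (detection p under 0.01 against the negative control beads of its array) on at least 4 arrays, and 6 of the 9 probes passed. The 4 genes were selected on measured values, since the Prdm4 null against wild-type difference of the family was already known when they were chosen. That difference, and that between Prdm4-EGFP and Prdm4 null cells, are therefore given for these 4 genes as descriptions with no test.

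Prdm4, one of the PRDM transcription regulators, carries zinc fingers. The series compared ES cells with a disrupted Prdm4 gene, or with extra copies of it, with unmodified ES cells. The 4 Prdm4 null arrays had genotype Prdm4∆ZF/∆ZF. Here exons coding for zinc fingers and for part of the PR/SET domain were deleted from both alleles by successive rounds of gene targeting. The authors saw a shortened Prdm4 transcript in such cells. The 6 Prdm4-EGFP arrays came from cells with intact Prdm4 alleles, stably transfected with a full-length Prdm4 fused to enhanced green fluorescent protein under a constitutive chicken beta-actin promoter and chosen by fluorescence. The 6 wild-type arrays had genotype Prdm4+/+. All were of 129/Sv strain, and the deposited design assigns each array to a clone. Whether clones within a group had separate origins is not stated, so errors and p-values measure the spread between arrays. Between 13894 and 14905 probes per array were above background. Prdm4 probe ILMN_2524723 was not above background on any null array, but read log2 7.02 to 7.41 on the Prdm4-EGFP arrays and 7.06 to 7.49 on the wild-type arrays. The other Prdm4 probe, ILMN_2945238, read 9.56 to 9.72, 10.07 to 10.34 and 10.17 to 10.40 in null, Prdm4-EGFP and wild-type cells, so on neither probe did a Prdm4-EGFP array read above the wild-type range.

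Gadd45 proteins have no known enzyme activity and work by binding others. They activate Map3k4, the kinase at the head of the p38 and JNK stress cascades, hold back the Cdk1 and cyclin B1 kinase that drives entry into mitosis, and bind the replication clamp Pcna and the cell cycle inhibitor Cdkn1a. Gadd45a is a target of the tumour suppressor p53 and has been linked to repair-coupled DNA demethylation, Gadd45b is induced by NF-kB and TGF-beta signals, and Gadd45g marks cells that leave proliferation to differentiate, for example in the neural plate of frog and mouse embryos. Gadd45gip1 is also a subunit of the large mitochondrial ribosome.

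The start-site regions of the 3 family genes are shown because the genes did not move together in null cells and their promoters can be compared letter by letter. Each is 200 bases of the RefSeq promoter table (build GRCm38.p6), from 150 bases before the transcription start to 50 after it, given 5′ to 3′ on the strand of the gene. Capitals mark the octamer ATTTGCAT, the letters recognised by POU factors such as Oct4, the CCAAT box, and the TATA box, searched with the letters TATAAA. Every motif was searched on both strands of the full promoter, from 250 bases before the start to 50 after it. The marked motifs do not overlap.
Gadd45a, chr6:67037358-67037557, minus strand: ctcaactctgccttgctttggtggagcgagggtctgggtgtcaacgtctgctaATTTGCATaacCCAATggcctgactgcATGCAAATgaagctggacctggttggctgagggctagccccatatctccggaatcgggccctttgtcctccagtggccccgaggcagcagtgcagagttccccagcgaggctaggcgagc
Gadd45b, chr10:80929941-80930140, plus strand: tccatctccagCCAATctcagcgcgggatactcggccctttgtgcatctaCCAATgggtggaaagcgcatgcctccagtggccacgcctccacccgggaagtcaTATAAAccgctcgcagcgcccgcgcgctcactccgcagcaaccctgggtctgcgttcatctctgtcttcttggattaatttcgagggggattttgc
Gadd45g, chr13:51846525-51846724, plus strand: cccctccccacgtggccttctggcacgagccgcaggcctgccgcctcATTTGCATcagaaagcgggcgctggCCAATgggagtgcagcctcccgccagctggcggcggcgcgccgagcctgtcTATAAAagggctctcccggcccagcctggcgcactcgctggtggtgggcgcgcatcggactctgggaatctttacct
The octamer was present in Gadd45a, at -97 and, on the opposite strand, at -70 from the start, and in Gadd45g at -103, and was not found in the Gadd45b promoter. Of 32851 promoters of the same length in the table (250 bases before to 50 after the start), 1.74% held it on either strand. A CCAAT box stood at -86 in Gadd45a, at -139 and -100 in Gadd45b and at -78 in Gadd45g, and 37.4% of promoters held one. The octamer and a CCAAT box were found together in 0.858% of promoters. No other pair of motifs was counted, and a link of any motif to the direction of these genes was not tested. A TATAAA stood at -46 in Gadd45b and at -27 in Gadd45g, against 13.6% of all promoters. The E box CACGTG was found at -185 in Gadd45b, ahead of the printed bases, and at -142 in Gadd45g (7.15% of promoters). The tripartite motif described for Prdm4 was in none of the 3 promoters and in 0.298% of all promoters. Its core GAAAC was in the Gadd45a promoter only, at -207 on the opposite strand and ahead of the printed bases (45.0% of promoters). These are letter matches and not measured binding sites.

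Gadd45g had the largest difference of the 4 genes. On probe ILMN_2903945 its log2 intensity was 9.52, 9.63, 9.68 and 9.67 on the 4 null arrays, against 6.16 to 7.40 (median 7.20) on the Prdm4-EGFP arrays and 6.84 to 7.33 (median 7.13) on the wild-type arrays. Every null array lay above every other array, by more than the wild-type arrays differed among themselves. The level averaged 9.62 ± 0.07 in null cells (SD, n = 4) and 7.08 ± 0.18 in wild-type cells (SD, n = 6), a log2 difference of 2.55 (SE 0.18), or 5.85-fold. Before any correction, the scanner signal was 827 to 920 on the null arrays, 110 to 213 on the Prdm4-EGFP arrays and 159 to 185 on the wild-type arrays.

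The other Gadd45g probe, ILMN_2744890, was above background on all 4 null arrays and on none of the Prdm4-EGFP or wild-type arrays. It read 7.30, 7.09, 7.32 and 7.01 in null cells, against 4.56 to 5.43 in Prdm4-EGFP cells and 4.66 to 5.23 in wild-type cells. Against the lowest signal that counted as above background on each wild-type array, the null level was at least 2.99-fold higher. With that floor taken on each Prdm4-EGFP array instead, the Prdm4-EGFP level was at least 2.94-fold lower than the null level. Gadd45g signal was thus raised in null cells on both of its probes, of which 1 was above background in wild-type cells. In bulk RNA a higher level per cell and a larger share of cells with the transcript cannot be told apart.

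Gadd45a was also higher in null cells on both of its probes. Probe ILMN_2742152 read 11.01, 10.99, 11.10 and 10.90 on the null arrays, against 9.67 to 10.12 (median 9.96) on the Prdm4-EGFP arrays and 9.60 to 10.24 (median 9.89) on the wild-type arrays. The SD was 0.08 between null arrays (n = 4) and 0.27 between wild-type arrays (n = 6), and the means differed by 1.08 (SE 0.12), or 2.11-fold. Null and wild-type arrays did not overlap. Probe ILMN_2947568 read 9.66, 9.80, 9.77 and 9.85 in null cells, against 8.45 to 9.16 (median 8.81) in Prdm4-EGFP cells and 8.52 to 9.15 (median 8.78) in wild-type cells. Its difference between null and wild-type cells was 0.95 (SE 0.14), or 1.93-fold, so both probes gave about the same size.

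The wild-type arrays were not of one kind for Gadd45a. Arrays 1, 5 and 6 read 9.60 to 9.79 and arrays 2, 3 and 4 read 9.99 to 10.24 on probe ILMN_2742152, and the same arrays split at 8.52 to 8.64 and 8.92 to 9.15 on probe ILMN_2947568. The split was not particular to wild-type cells. On probe ILMN_2742152 the Prdm4-EGFP arrays 1, 5 and 6 (9.67 to 9.93) also lay below arrays 2, 3 and 4 (9.98 to 10.12). On probe ILMN_2947568 those Prdm4-EGFP arrays overlapped (8.45 to 9.01 and 8.68 to 9.16). What the array numbers share was not tested. Without wild-type arrays 1, 5 and 6 the null minus wild-type difference was 0.85 and 0.72 on these probes. The same wild-type arrays stood the other way for Gadd45gip1, at 6.76 to 6.96 on arrays 1, 5 and 6 and 6.31 to 6.67 on arrays 2, 3 and 4.

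Gadd45b went the other way. Probe ILMN_2900653 read 6.53, 6.39, 6.74 and 6.73 on the null arrays, against 6.75 to 6.92 (median 6.85) on the Prdm4-EGFP arrays and 6.89 to 7.28 (median 7.15) on the wild-type arrays. The highest null array lay just under the lowest Prdm4-EGFP array and clear of the wild-type arrays. The means were 6.60 ± 0.17 in null cells (SD, n = 4) and 7.09 ± 0.15 in wild-type cells (SD, n = 6), a difference of -0.50 (SE 0.09), or 0.708-fold. With only array numbers 1 and 2 of each group the difference was -0.76, and with numbers 3 and above it was -0.30, so its size varied more between these sets than that of the other family genes. The second Gadd45b probe, ILMN_1246065, was not above background on any of the 16 arrays (scanner signal 55.1 to 76.4) and adds nothing on direction.

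Gadd45gip1 differed little between the groups. Probe ILMN_1240677 read 6.53, 6.53, 6.58 and 6.65 in null cells, against 6.46 to 6.78 (median 6.60) in Prdm4-EGFP cells and 6.31 to 6.96 (median 6.71) in wild-type cells. The difference between null and wild-type cells was -0.07 (SE 0.11), and the null arrays lay inside the wild-type range. Its probes ILMN_2745692 and ILMN_2830860 were not above background on any array.

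**Figure D1:**
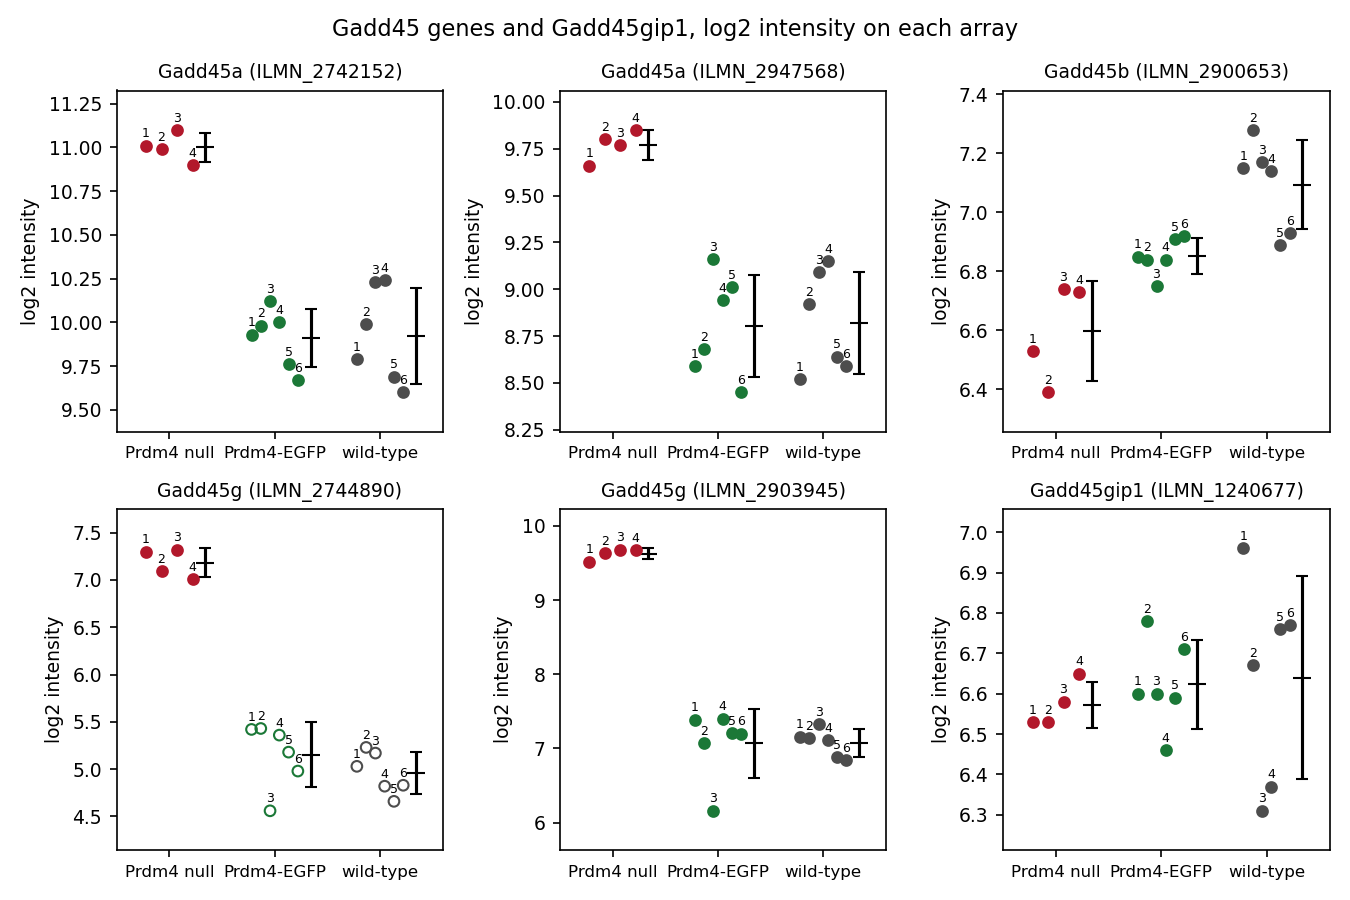
Log2 intensity (y axis) of the 6 tested probes on each of the 16 arrays, by group; numbers are array numbers, filled points were above background and open points were not, and the bar at the right of each group is the mean with its SD. Null arrays sit above all others for both probes of Gadd45a and Gadd45g and below all others for Gadd45b, and the groups overlap for Gadd45gip1.

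Of the 6 probes, 5 did not overlap between null and wild-type cells. Over all 15356 probes that passed the filter, 29.6% did not overlap between these groups, and 41.6% were called (adjusted p under 0.05, limma). Because the genes were chosen from this comparison, nothing is read from their count.

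The choice of genes did not use the comparison between Prdm4-EGFP and wild-type cells. That comparison still shares its wild-type arrays with the one that was used, so it is not fully independent of the choice. None of the 6 probes was called by limma at an adjusted p under 0.05, and none was free of overlap. Among them, Gadd45g probe ILMN_2744890 was not above background on any array of either group. It passed the filter only through the null arrays, so it could hardly be called here. At an unadjusted p under 0.05, 1 of the 6 passed (Gadd45b). Over all probes 3.75% were called and 2.22% did not overlap. Gadd45a averaged 9.91 ± 0.17 in Prdm4-EGFP cells and 9.92 ± 0.27 in wild-type cells on probe ILMN_2742152 (SD, n = 6 each; difference -0.01, 95% interval -0.24 to 0.22, adjusted p = 0.976 by limma). On probe ILMN_2947568 it averaged 8.81 ± 0.27 in Prdm4-EGFP cells and 8.82 ± 0.27 in wild-type cells (difference -0.01, interval -0.28 to 0.25, adjusted p = 0.978). These intervals are not adjusted for the number of probes. A change as large as that between null and wild-type cells lay outside both intervals.

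Gadd45g averaged 7.07 ± 0.46 in Prdm4-EGFP cells and 7.08 ± 0.18 in wild-type cells on probe ILMN_2903945 (difference -0.01, interval -0.34 to 0.33, adjusted p = 0.992 by limma). The wide spread in Prdm4-EGFP cells came from array 3, at 6.16, where the next lowest array read 7.07. Probe ILMN_2744890 was also lowest on that array, at 4.56, while Gadd45a was highest there among the Prdm4-EGFP arrays on both probes (10.12 and 9.16). Without array 3 the Gadd45g difference on probe ILMN_2903945 was 0.18 (SE 0.09, adjusted p = 0.321).

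Gadd45b, whose wild-type arrays are also those of the comparison it was chosen from, came nearest to a call. It averaged 6.85 ± 0.06 in Prdm4-EGFP cells and 7.09 ± 0.15 in wild-type cells, a difference of -0.24 (SE 0.08, interval -0.40 to -0.08, adjusted p = 0.0884 by limma), with overlap through wild-type array 5 (6.89), which lay below Prdm4-EGFP arrays 5 and 6 (6.91 and 6.92). Over the alternatives tried it ran between -0.37 and -0.18, with adjusted p between 0.0512 and 0.555, so it stayed on the same side of the threshold. Gadd45gip1 averaged 6.62 ± 0.11 in Prdm4-EGFP cells and 6.64 ± 0.25 in wild-type cells (difference -0.02, interval -0.22 to 0.18, adjusted p = 0.958).

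Set against null cells, the Prdm4-EGFP level was lower by a log2 difference of -1.09 (SE 0.12) and -0.96 (SE 0.14) for the Gadd45a probes and -2.55 (SE 0.18) for Gadd45g probe ILMN_2903945, and higher by 0.26 (SE 0.09) for Gadd45b. These values share the null arrays with the comparison above, and are a description.

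**Figure D2:**
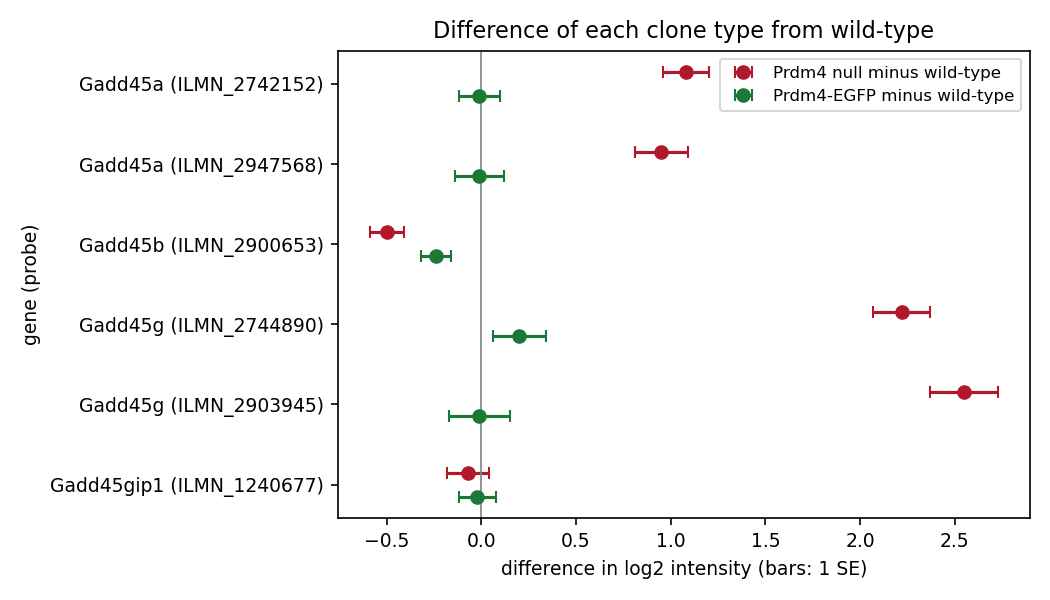
Difference in log2 intensity (x axis) of each tested probe (y axis) between null and wild-type cells and between Prdm4-EGFP and wild-type cells, with bars of 1 SE from the fit. For Gadd45g ILMN_2744890 the Prdm4-EGFP and wild-type levels were not above background, so its points are fitted values and its bound is given in the text. Both Gadd45a and Gadd45g stand to the right of 0 in null cells and near 0 in Prdm4-EGFP cells, and Gadd45b stands to the left in both (-0.50 and -0.24). Both differences of a probe are taken from the same wild-type arrays.

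Partners, regulators and neighbouring pathways of the family were counted from lists of genes, each gene standing for its probe of highest mean level. These lists were drawn up with results of these arrays known, and are not independent evidence of a direction. Over all 8707 genes tested, 22.9% rose and 21.2% fell in null against wild-type cells, with a median log2 difference of 0.02. In Prdm4-EGFP against wild-type cells 1.9% rose and 2.19% fell, with a median of 0.00. Of the probes called in null against wild-type cells 50.9% were higher in null cells, against 37.2% with the normalization of the authors and 62.3% with median scaling. For Prdm4-EGFP against wild-type cells the share higher was 48.1%, and 71.8% with median scaling.

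Of 14 proteins known to bind Gadd45 family members, 8 were tested, and in null cells 0 rose and 1 fell (median -0.10). Map3k4 and cyclin B1 were not among the 8. The one that fell was the retinoid X receptor Rxra (-0.36, SE 0.10, adjusted p = 0.00851 by limma). Rxra was dim, at mean log2 5.72 in null cells and above background on 3 of the 4 null arrays. Cdk1 differed by -0.11 (adjusted p = 0.321), the cyclin-dependent kinase inhibitor Cdkn1a by 0.11 (0.467) and Pcna by -0.45 (0.0904). The p38 kinase Mapk14, the nuclease Ercc5, the TFIID subunit Taf12 and the DNA glycosylase Tdg differed by 0.04, -0.10, -0.16 and -0.04, none of them called. None of the 8 was called in Prdm4-EGFP cells by limma, also at an unadjusted p under 0.05, with differences of -0.13 to 0.14.

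In the p38 and JNK cascades, which act below Gadd45 proteins, 5 of the 15 tested genes rose and 3 fell in null cells (median 0.22). Mapkapk2, the kinase activated by p38, fell by 0.68 (SE 0.07, adjusted p = 2.91e-07), as did the p38 activator Map2k6 (-0.59, SE 0.12, adjusted p = 0.000978) and the p38 isoform Mapk11 (-0.40, SE 0.09, adjusted p = 0.00149). Another isoform, Mapk12, rose by 0.68 (SE 0.10, adjusted p = 1.95e-05). In Prdm4-EGFP cells 0 of the 15 were called by limma, and 2 passed an unadjusted p of 0.05.

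Among transcription factors linked to induction of Gadd45 genes, 3 of 11 tested rose and 2 fell in null cells (median 0.10). The immediate early factor Egr1 rose by 1.55 (SE 0.10, adjusted p = 2.66e-09), Irf1 by 0.62 (SE 0.11, adjusted p = 0.000134) and Cebpb by 0.45 (SE 0.10, adjusted p = 0.00162), while the TGF-beta mediator Smad3 fell by 0.34 (SE 0.09, adjusted p = 0.00545). The other gene that fell, named after its value was seen, was Ddit3 (-0.44). Egr1 was also the single gene of this list called in Prdm4-EGFP cells, where it rose by 0.72 (SE 0.09, adjusted p = 0.000351). Egr1 was thus called higher in both kinds of modified clone.

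Of 10 tested growth arrest and immediate early genes, some of them also in the previous list, 5 rose and 3 fell in null cells (median 0.33). Besides Egr1, the zinc finger factor Klf6 rose by 1.25 (SE 0.08, adjusted p = 1.4e-09) and Ppp1r15a, a phosphatase subunit of the stress response, rose by 0.62 (SE 0.09, adjusted p = 2.09e-05). Myd88, an adaptor of Toll-like receptors, fell by 0.55 (SE 0.07, adjusted p = 3.54e-06). In Prdm4-EGFP cells Egr1 was the only call of this list, and the median was -0.11.

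The list of p53 targets, to which Gadd45a belongs by function but in which it was not counted, had the largest median of the lists in null cells. There 10 of 16 tested genes rose and 2 fell, with a median of 0.51. Cyclin G1 (Ccng1) rose by 0.71 (SE 0.06, adjusted p = 8.47e-08), the kinase Plk2 by 1.18 (SE 0.13, adjusted p = 8.27e-07), Gtse1 by 0.53 (SE 0.06, adjusted p = 1.13e-06) and the stress-induced sestrin Sesn2 by 1.01 (SE 0.12, adjusted p = 1.96e-06). The genes that fell, named after their values were seen, were Sesn1 (-0.29) and the apoptosis gene Pmaip1 (-0.54). Cdkn1a, the best known p53 target, was not called, as given above. In Prdm4-EGFP cells 0 rose and 1 fell, the nuclease Aen (-0.35, SE 0.08, adjusted p = 0.0155), and the median was -0.06.

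Genes of the G2 to M transition, the step that Gadd45 proteins can block, had a median of 0.03 in null cells, with 1 of 11 tested rising and 2 falling. Bora, a cofactor of Aurora kinase, fell by 1.37 (SE 0.12, adjusted p = 7.36e-08) and the checkpoint kinase Chek2 by 0.33 (SE 0.09, adjusted p = 0.0066), while Aurkb rose by 0.26 (SE 0.06, adjusted p = 0.0017). In Prdm4-EGFP cells 0 were called by limma, and 3 passed an unadjusted p of 0.05.

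Of 9 tested genes of active DNA demethylation, 2 rose and 4 fell in null cells (median -0.16). The oxidase Tet1 rose by 0.71 (SE 0.09) and the repair scaffold Xrcc1 by 0.33 (SE 0.07). The uracil glycosylase Smug1 fell by 0.46 (SE 0.07) and Parp1 by 0.45 (SE 0.07). In Prdm4-EGFP cells the glycosylase Mbd4 rose by 0.25 (SE 0.06, adjusted p = 0.0272), a call that was lost without wild-type arrays 1, 5 and 6.

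The large mitochondrial ribosome, of which the Gadd45gip1 product is a part, had 20 of 46 tested Mrpl genes that fell and 3 that rose in null cells (median -0.15). Mrpl30 fell by 0.65 (SE 0.08, adjusted p = 6.18e-06), Mrpl36 by 0.41 (SE 0.07, adjusted p = 9.8e-05), Mrpl44 by 0.37 (SE 0.06, adjusted p = 0.000104) and Mrpl33 by 0.39 (SE 0.07, adjusted p = 0.000126). Without wild-type arrays 1, 5 and 6, 11 fell and 3 rose. Of the 20 that fell, 2 lie on chromosome 1, and in Prdm4-EGFP cells 0 of the 46 were called by limma, with 2 under an unadjusted p of 0.05.

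**Figure D3:**
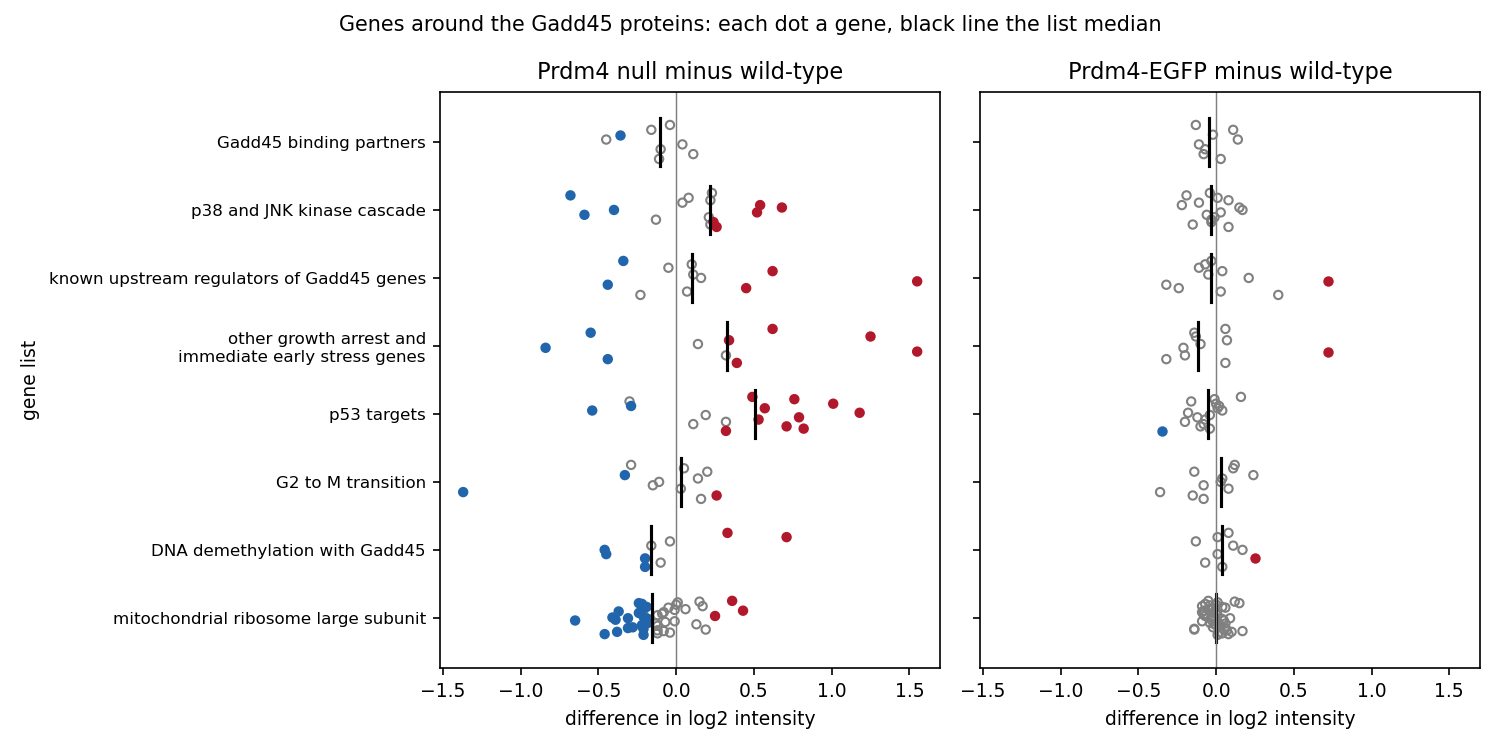
Difference in log2 intensity (x axis) of every tested gene of each list (y axis), for null against wild-type cells (left) and Prdm4-EGFP against wild-type cells (right); filled red dots rose and filled blue dots fell at an adjusted p under 0.05, open dots were not called, and the black line is the list median. The p53 targets have the largest null median (0.51), and Egr1 is the red dot at 0.72 in both lists that hold it on the right.

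Some markers of other cell types also differed between null and wild-type cells, in both directions, and stand beside these values. Of 7 trophoblast markers, 3 were tested and all 3 rose in null cells (Tfap2c 1.38, Krt8 0.64 and Krt18 1.05), with a summed level of 1998 to 2458 on null arrays, 668 to 1139 on Prdm4-EGFP arrays and 666 to 1180 on wild-type arrays, while Cdx2, Elf5, Eomes and Hand1 did not pass the filter. Of 8 primitive endoderm markers 4 were tested, of which Gata6 (1.35) and Dab2 (2.00) rose, Sox7 (-0.42) fell and Lama1 (-0.21) was not called in null cells. Gata6, like Krt18, was above background on only 1 of the 6 wild-type arrays, so its difference is a fitted value. In Prdm4-EGFP cells none of the 4 was called by limma. Of them, 3 passed an unadjusted p of 0.05 there, Gata6 (0.87) and Dab2 (0.83) higher and Sox7 (-0.37) lower. The levels of the 4 markers, summed on the linear scale, overlapped between the groups (1335 to 1450, 1217 to 1799 and 1113 to 1530 in null, Prdm4-EGFP and wild-type cells). Lama1 dominated this sum, at mean log2 10.15 in wild-type cells against 6.10 for Dab2 and 5.11 for Gata6. The overlap therefore says little about Gata6 and Dab2. Nes was the 1 neural precursor marker tested of 7, and was above background on the null arrays only. Thy1 was the 1 fibroblast marker tested of 10 and fell in null cells (-1.79), and the collagen genes Col1a1, Col1a2 and Col3a1 did not pass the filter on these arrays. All 8 ES cell markers were tested, of which Sox2 (0.29) and Utf1 (0.28) rose and Nanog (-0.85) and Esrrb (-0.33) fell in null cells, with a summed level of 48322 to 50870 on null arrays, 52888 to 55864 on Prdm4-EGFP arrays and 51414 to 54897 on wild-type arrays. The part of these cell types in the Gadd45 values was not tested.

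The genes flanking each family member were taken from the RefSeq gene order, 3 tested genes on each side. Untested genes were skipped, so their distances ran from 10 to 4093 kb. Around Gadd45a on chromosome 6, 5 of 6 were not called in null cells, and Thnsl2, the farthest at 4093 kb, fell by 1.10. Around Gadd45g on chromosome 13, Fbxw17 (0.84), Spin1 (0.63) and Sptlc1 (0.18) rose, Auh (-0.21) and Ror2 (-0.56) fell and Secisbp2 (-0.04) was not called. Around Gadd45b on chromosome 10, Sf3a2 (0.52) and Sppl2b (0.24) rose where Gadd45b was lower. Around Gadd45gip1 on chromosome 8, Trmt1 (0.48) and Calr (0.61) rose. The median difference of all tested genes was -0.00 on chromosome 6, 0.05 on 10, 0.02 on 13 and 0.02 on 8.

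The genes whose level across the 16 arrays ran closest to a family member were found by the root mean square difference between log2 levels, each centred on its own mean. Only Gadd45a (SD 0.52 across arrays) and Gadd45g (SD 1.18) varied enough, above an SD of 0.25, for this to be informative, while Gadd45b (0.23) and Gadd45gip1 (0.16) did not. For Gadd45g the closest were the metalloprotease Adamts9 (difference 0.31), the MAP kinase phosphatase Dusp4 (0.33), Ube2cbp (0.37), the cornified envelope protein Lor (0.39) and the ubiquitin ligase Trim36 (0.40). Adamts9, Ube2cbp, Lor and Trim36 were not above background on any wild-type array. Dusp4 averaged 9.25 ± 0.18 in null cells (SD, n = 4), 6.72 ± 0.20 in Prdm4-EGFP cells and 6.84 ± 0.21 in wild-type cells (SD, n = 6 each).

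For Gadd45a the closest were Nsmaf, an adaptor of the TNF receptor (0.11), Hmgxb4 (0.13), the splicing regulator Mbnl2 (0.13), the phospholipase Pla1a (0.14) and Grip1 (0.14). Each of these 5 genes was, like Gadd45a, lower on wild-type arrays 1, 5 and 6 than on arrays 2, 3 and 4. Likeness was chosen on these levels, so they are a description.

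**Figure D4:**
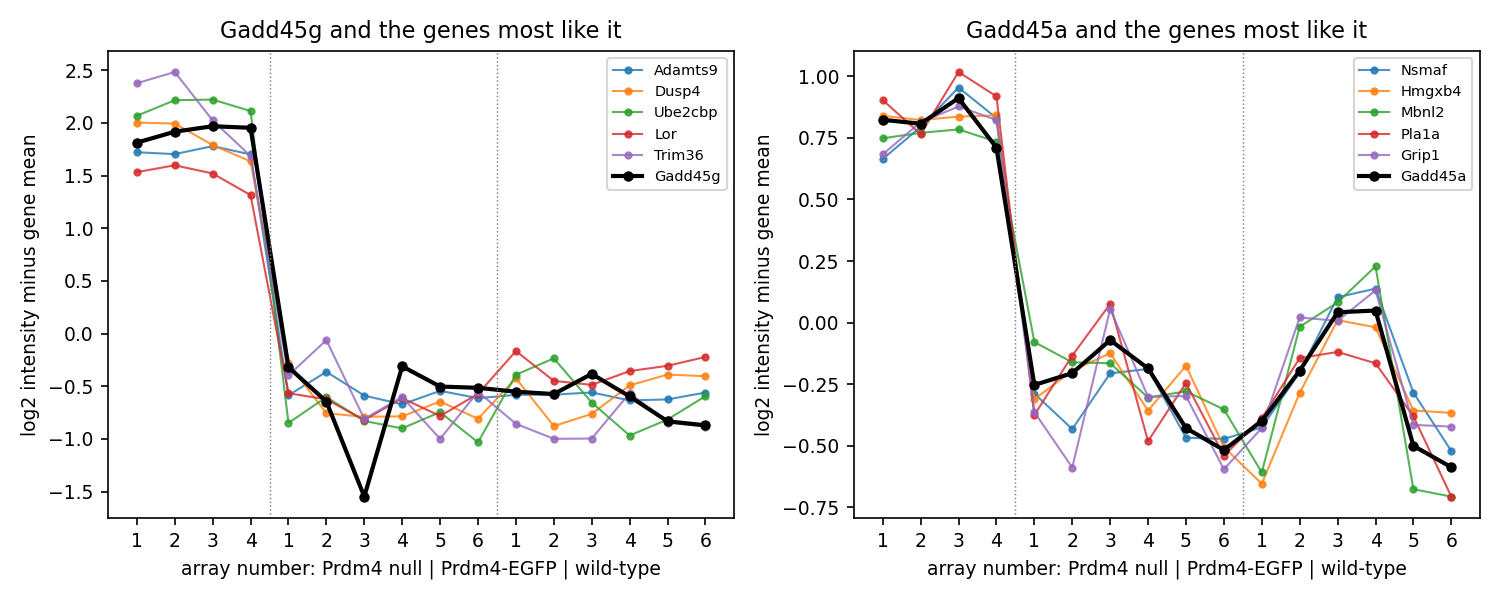
Log2 intensity minus the gene's own mean (y axis) on each array (x axis, array numbers in the order null, Prdm4-EGFP and wild-type, split by dotted lines) for Gadd45g (left, black) and Gadd45a (right, black) with the 5 genes closest to each. Gadd45g drops on Prdm4-EGFP array 3 (6.16 before centring) where none of its 5 closest genes falls as far, and Gadd45a and its 5 genes dip together on wild-type arrays 1, 5 and 6.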

How the data were processed

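Illumina Mouse WG-6 v2 arrays of 16 samples were used. Per the file headers, the scanner table that the authors deposited gives an intensity and a detection p-value per probe and array, with no normalization or background subtraction. The authors also deposited a table normalized by rank-invariant scaling, which was an alternative here. Its values on an array were the scanner intensity less a constant (54.2 to 68.2) and rescaled (factor 0.763 to 1.22). The authors' custom error model was not used.

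Intensities were background corrected from the detection p-values, offset by 16, quantile normalized and put on the log2 scale with neqc of limma 3.58.1 (R 4.3.3). Of 45281 probes, the 15356 detected (p under 0.01) on 4 or more arrays were kept. A linear model of 3 group means over all 16 arrays was fitted (lmFit, eBayes; two-sided), with Benjamini-Hochberg adjustment per comparison and a threshold of 0.05. Where no array of a group detected a probe, a bound is given. The platform annotation gave 34885 probes 1 symbol and 18 several, and 10378 stayed unnamed. Precision is limited by the number of arrays.

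The members and the gene lists were chosen with earlier results of these data known. Named genes were all member probes, the tested binding partners, up to 4 genes per list by smallest p, the 5 genes closest to a member and 3 tested neighbours per side. Alternatives changed the normalization, background, filter, arrays and blocks. No slide, date or passage is labelled, and replicate numbers were not taken as pairs. Gene order and chromosomes were read from a RefSeq table (GRCm38.p6). The array's own build is not given in the sources used here. Lists, promoters and figures were made in Python 3.11.15 (numpy 2.4.6, pandas 2.3.3, matplotlib 3.10.9).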

Additional observations from a re-analysis of the deposited data

Results flagged for a closer look

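Of 27 tests for a stray array over the probes of the 4 genes and the 3 groups, 1 found an array apart, and chance gives about 1 in 20. Gadd45g on probe ILMN_2903945 read 6.16 on Prdm4-EGFP array 3, where the next lowest Prdm4-EGFP array read 7.07 and the highest 7.40, so that the gap took up 0.73 of the group's range. The second Gadd45g probe was lowest on the same array (4.56). Without this array the Prdm4-EGFP minus wild-type difference of probe ILMN_2903945 was 0.18 (SE 0.09), with an adjusted p of 0.321 by limma.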

How the results depend on the processing

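The higher level of Gadd45a and of Gadd45g (probe ILMN_2903945) and the lower level of Gadd45b in null cells kept their direction in every alternative run. In null against wild-type cells, Gadd45a probe ILMN_2742152 was 0.85 without wild-type arrays 1, 5 and 6. Gadd45b was -0.36 without background correction, -0.76 with array numbers 1 and 2 only and -0.30 with numbers 3 and above. Gadd45g was 2.21 without background correction on probe ILMN_2903945. For probe ILMN_2744890, not above background in wild-type cells, the fitted value was 2.22 as reported, 1.36 without background correction and 1.46 with an offset of 50, and none of these is a bound. Gadd45gip1 was -0.28 with array numbers 1 and 2 and 0.13 without wild-type arrays 1, 5 and 6.

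In Prdm4-EGFP against wild-type cells the near-zero differences changed sign, with no call in any of these alternatives. Median scaling gave 0.05 and 0.04 for Gadd45a probes ILMN_2742152 and ILMN_2947568, 0.04 for Gadd45g probe ILMN_2903945 and 0.01 for Gadd45gip1. Gadd45a was 0.07 with array numbers 1 and 2 (ILMN_2742152) and 0.02 with numbers 3 and above (ILMN_2947568). Gadd45g probe ILMN_2903945 was 0.01 without background correction and with an offset of 50, and 0.08 with numbers 1 and 2. Gadd45gip1 was 0.04 with numbers 3 and above and 0.18 without wild-type arrays 1, 5 and 6. Without these arrays the Gadd45a probes gave -0.24 (adjusted p = 0.251) and -0.25 (adjusted p = 0.411), still not called. That setting kept Prdm4-EGFP arrays 1, 5 and 6, so the array numbers of the groups were no longer matched. With the replicate number as a block, both Gadd45a probes gave -0.01 (SE 0.07 and 0.09). Leaving out each array in turn gave -0.08 to 0.05 and -0.08 to 0.06 for the Gadd45a probes, -0.07 to 0.18 for Gadd45g probe ILMN_2903945 and -0.08 to 0.05 for Gadd45gip1.

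In Prdm4-EGFP against null cells Gadd45b was 0.39 with array numbers 1 and 2 and 0.12 with numbers 3 and above. Gadd45g was -2.20 without background correction on probe ILMN_2903945. For probe ILMN_2744890, not above background in Prdm4-EGFP cells, the fitted value was -2.03, and -1.26 without background correction and -1.36 with an offset of 50, again no bounds.

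Counts of called probes moved more. Null against wild-type gave 6381, with 2897 for array numbers 1 and 2, 3942 for numbers 3 and above, and 5450 to 6419 leaving out each array. Prdm4-EGFP against wild-type gave 576, with 317 without a filter, 319 with the arrays of both groups only, 4 with numbers 1 and 2, 88 with numbers 3 and above, 206 without wild-type arrays 1, 5 and 6, and 329 to 777 leaving out each array. The low counts came without wild-type array 5 (329), wild-type array 6 (363) or Prdm4-EGFP array 5 (359). Prdm4-EGFP against null gave 7115, and 2913 with numbers 1 and 2; 49.5% of these were higher in Prdm4-EGFP cells, against 61.1% in the normalization of the authors. Dropping wild-type arrays 1, 5 and 6, chosen after seeing the data for the lists, left 14 called Mrpl genes of 23. The causes were not tested.

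Array numbers are shared between groups, but arrays with the same number had a mean correlation of 0.103 (14 pairs, 7 above 0.1), against -0.0203 over 70 other pairs. For 5 of 16 arrays the closest array of another group bore the same number. With the replicate number as a block, 6116, 583 and 6882 probes were called in these comparisons, and null minus wild-type was 0.96 and 0.88 for the Gadd45a probes, -0.53 for Gadd45b and 2.53 for Gadd45g probe ILMN_2903945.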
